A study of Mus musculus with 6 samples.

Results

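The protein genes of the mitochondrial ribosome were examined in mouse synovial fibroblasts treated with compound 33. Members were the rows of the count table whose symbol begins with Mrpl or Mrps followed by a digit, and 78 of the 21033 listed symbols met this rule. Of these, 26 encode proteins of the small subunit and 51 proteins of the large subunit. The large-subunit group includes Mrps30 and Mrps18a, whose symbols carry the letter s but whose proteins sit in the large subunit of the mammalian ribosome. The remaining member, Mrps36, is known today as a component of the 2-oxoglutarate dehydrogenase complex. It is kept apart from both subunits but stays in the counts, medians and sums over all members. The low-count filter passed 77 members, and Mrpl53 had 0 reads in all 6 libraries.

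Synovial fibroblasts, connective tissue cells of the joint lining, were taken from the ankles of hTNFtg animals (mice with a transgene for human TNF) and grown for 3 passages. One group received 10 µM compound 33 for 48 h (labelled treated) and the other DMSO, the vehicle (labelled control), with 3 libraries each, and the series title links the compound class to the chaperone Hyou1. All 6 libraries therefore share the transgene, and none comes from cells without it. The labels do not say whether replicates are separate animals or cultures. Each p-value therefore weighs the group difference against a spread between libraries that may be only technical. In bulk RNA, fewer cells of a type and less RNA per cell cannot be told apart.

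The mitochondrial ribosome translates the few messages of the mitochondrial genome, which encode core subunits of the respiratory chain and the ATP synthase. Its RNA comes from that genome, while all of its proteins are encoded in the nucleus, made in the cytosol and imported. The small subunit binds and decodes messages, and the large subunit joins the amino acids and hands the new chain to the inner membrane. Some of its proteins have counterparts in bacterial ribosomes and others are found only in mitochondria.

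Members were spread over 17 chromosomes, and all 78 matched a single protein-coding gene of GENCODE M21 on mm10. Of the members, 33 (42.3%) had the start of a coding gene of the opposite strand within 1000 bases of their own start, against 17.2% of 10003 tested coding genes. In the RefSeq promoter table (GRCm38.p6, the same assembly as mm10; 250 bases before to 50 after each start) 69 members had 75 promoters. The letters CCGGAAGT, an ETS-type motif bound by GABP, were found on either strand in 12 of these 75 promoters, against 8.64% of 10268 promoters of tested genes and 3.89% of all 32851. The NRF1-type motif (GCGCA, any base, then GCGC; either strand) was in 17.3%, against 10.6% and 4.60%. The YY1-type motif AAGATGGCG, searched on either strand, was in 10.7%, against 3.28% and 1.40%. The E-box CACGTG, a palindrome, was in 9.33%, against 10.5% and 7.15%. The 3 promoters of Mrpl2 overlap, and the same E-box was counted in each. A match describes letters only, not binding, and the motifs were counted separately, so 1 promoter can hold several.

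The windows below show the NRF1-type motif in capitals, 5′ to 3′ along the gene, for members that are described further on, with Mrpl45 higher and Mrps21, Mrpl57 and Mrpl32 lower with compound 33 by estimate and Mrpl17 the most abundant member. They lie at chr11:97315586-97315615 and chr11:97315668-97315697 (plus strand) for Mrpl45, chr3:95871586-95871615 (minus) for Mrps21, chr14:57826172-57826201 (plus) for Mrpl57, chr13:14613105-14613134 (minus) for Mrpl32 and chr7:105811117-105811146 (minus) for Mrpl17. The motif stood before genes with estimates of either sign, and the third match of Mrpl45 is not shown. In the Mrps21 window the motif is marked on its reverse strand.
Mrpl45, distal: gaagcctcctGCGCAGGCGCagctggctct
Mrpl45, proximal: tggtttcattGCGCACGCGCgaacccactg
Mrps21: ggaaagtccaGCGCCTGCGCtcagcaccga
Mrpl57: tttgaatcctGCGCAGGCGCagaaggcgtc
Mrpl32: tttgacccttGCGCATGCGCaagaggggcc
Mrpl17: aggctctgatGCGCACGCGCaaacgcggta

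The ETS-type motif is shown for Mrps22, the small-subunit member with the lowest estimate (chr9:98601672-98601701, minus strand), and for the abundant Mrpl33 (chr5:31613937-31613966, plus strand). The YY1-type motif is shown, on its reverse strand, for Mrps11 (chr7:78783013-78783042, plus strand), which shares its start region with Mrpl46.
Mrps22: aacctctcgagCCGGAAGTtgctctatcga
Mrpl33: ccgcgcatgccCCGGAAGTagtcgttgagc
Mrps11: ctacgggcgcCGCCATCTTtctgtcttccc

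The libraries held 1594052 to 2897207 reads, and members took 0.427% to 0.557% of them. Replicates differed by more than counting noise in all 6 within-group pairs (chi-square per degree of freedom 4.34 to 17.6). All 9 fibroblast markers were detected, with 20101 to 42074 summed reads per library. The 14 markers of leukocytes, endothelium, muscle and cartilage summed to 16 to 56 reads in the DMSO and 14 to 30 reads in the compound 33 libraries, and 5 of them (Pecam1, Tie1, Cd3e, Myh4 and Acan) were at 0 throughout. Of the fibroblast markers 8 of 9 had estimates below 0 (median log2 fold change -0.23), with Thy1 at 765 ± 166 and 486 ± 52.0 CPM (DMSO, then compound 33; mean ± SD, n = 3) and Dcn at 663 ± 141 and 459 ± 109.5 CPM. Both had an unadjusted p under 0.05 in edgeR and neither passed after adjustment. The estimate of Dcn, -0.53, was -0.34 without DMSO replicate 1. The part of these markers in the member values was not tested. Levels are given as counts per 1000000 reads of the scaled library (CPM), and since the 3′ kit reads each transcript near its end, they were not divided by gene length. Hyou1 stood at 86.7 ± 34.1 CPM under DMSO and 94.9 ± 3.67 CPM under compound 33.

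DMSO replicate 1 stood apart from the other libraries for these genes. It held the highest level of 31 members (40.3%), whereas it held the highest level of 21.9% of all tested genes. Compound 33 replicate 1 held the lowest level of 24 members (31.2%), against 15.5% of all genes. The median member lay 0.15 above its own mean over the libraries in DMSO replicate 1 on the log2 scale and at -0.12 from it in both DMSO replicate 3 and compound 33 replicate 1. The median coefficient of variation of members was 20.96% among DMSO libraries and 16.8% among compound 33 libraries, near the 22.3% and 19.7% of all genes.

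No mitochondrial ribosomal protein gene passed the test between compound 33 and DMSO, in either subunit or direction. Member estimates ran from -0.79 for Mrps22 to 0.73 for Mrpl45 on the log2 scale, with 34 above and 43 below 0. Their median log2 fold change was -0.06, against -0.01 over all 10124 genes tested. It was -0.15 over the 26 small-subunit genes, 10 above and 16 below 0, and -0.05 over the 50 tested large-subunit genes, 24 above and 26 below 0. The direction of the member median was not stable, since it was 0.04 when DMSO replicate 1 was left out. For the large subunit it was 0.12 without DMSO replicate 1.

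In edgeR's quasi-likelihood test 0 of 77 members had an adjusted p under 0.05, where 0.0296% of all genes did, and the smallest adjusted p of a member was 0.537. Before adjustment 5 members lay under 0.05, which is 6.49% of those tested and close to the 6.87% of all genes. Higher with compound 33 were 2 of them (3.64% of all genes lay there) and lower were 3 (3.23% of all genes). The groups did not overlap for 7 members (9.09%, against 13.4% of all genes), 3 of them higher with compound 33 (6.64% of all genes) and 4 lower (6.73%). DESeq2 and limma-voom also passed 0 members, with 5 and 4 under an unadjusted 0.05, where 5.47% and 6.75% of all genes were. In the table deposited by the authors, none of the 77 members (0) had an adjusted p under 0.05, where 0.179% of genes did. The same 5 members were under an unadjusted 0.05 in the authors' deposited table. There 4.2% of the 14851 genes with a p-value were. That is a wider set than the 10063 genes with an adjusted p, so this share is not like those above.

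A p that misses the threshold does not show equal levels, so the intervals are given as well. For 61 members (79.2%) the 95% interval of the log2 fold change lay wholly inside a 2-fold change in either direction, against 65.6% of all genes. Of the other 16 members, 13 had an interval that reached past a 2-fold lower level. For 3, Mrpl38, Mrpl45 and Mrps5, it reached past a 2-fold higher level. Of all 10124 genes tested, 1845 had an interval past a 2-fold lower level and 1803 past a 2-fold higher level. The 13 of 77 members past a 2-fold lower level are thus near the share of all genes. The 3 of 77 past a 2-fold higher level are a smaller share than that of all genes. This difference was not tested. The median half-width of the interval was 0.54 on the log2 scale, which sets the precision of a single member's estimate.

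**Figure D1:**
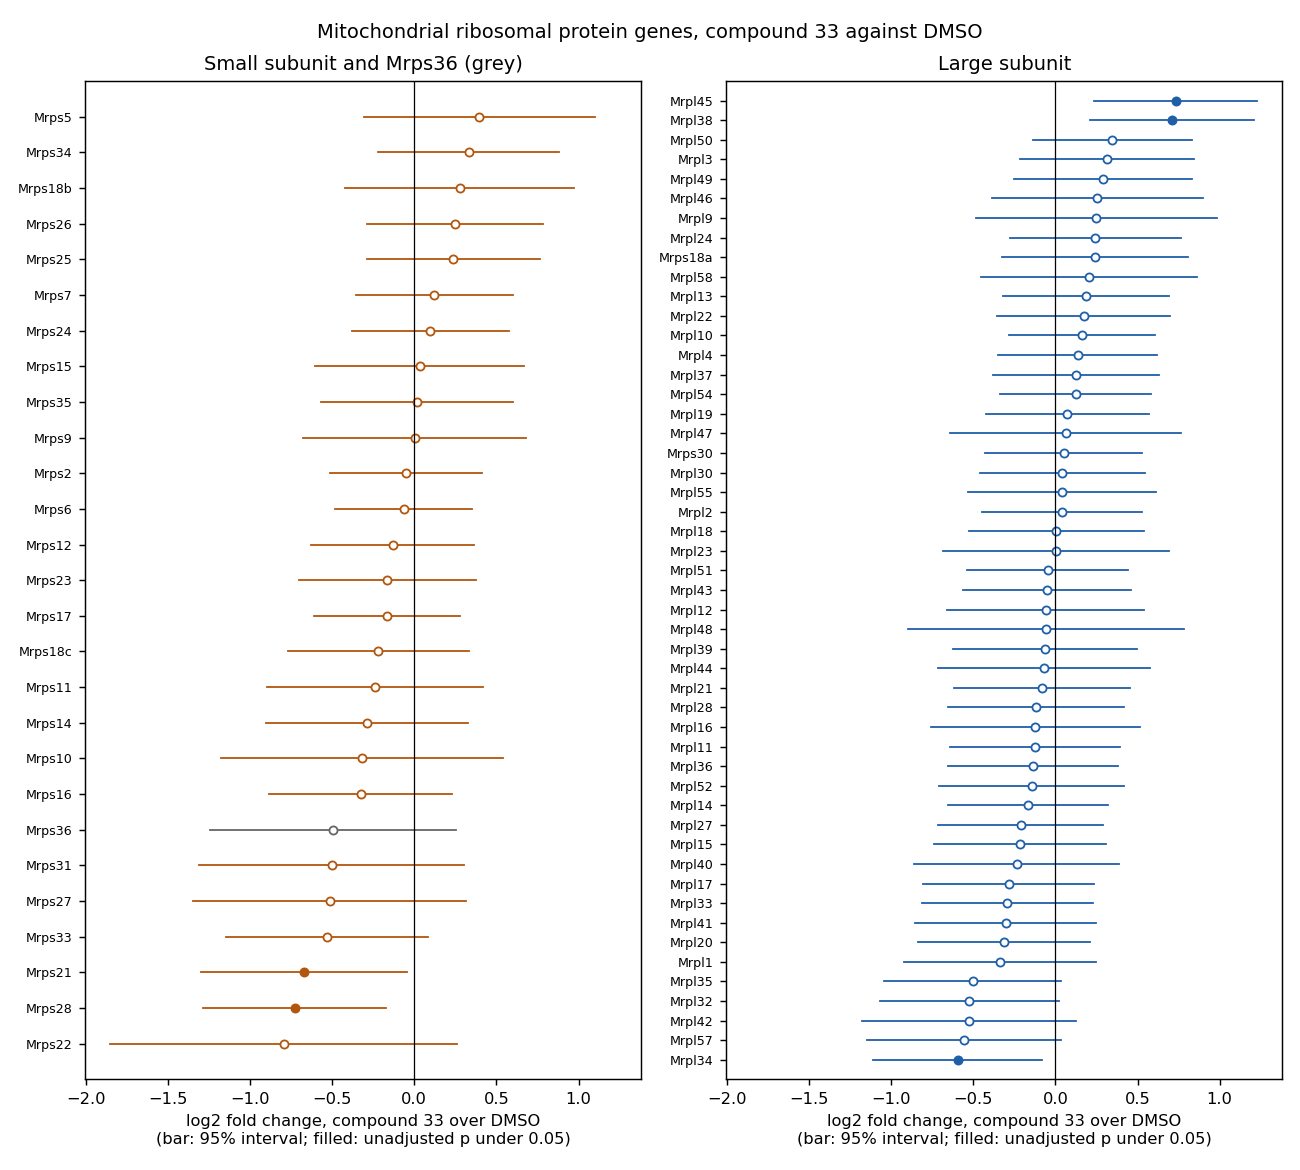
Log2 fold change of compound 33 over DMSO for each tested member, with the 95% interval from edgeR; small subunit and Mrps36 at left, large subunit at right, filled points for an unadjusted p under 0.05. Estimates lie between -0.79 and 0.73, and the intervals of 5 members do not reach 0.

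Mrpl45 had the smallest p of all members. Its protein lies at the exit of the peptide tunnel, where the ribosome meets the inner membrane. It stood at 27.6, 37.9 and 37.3 CPM in the DMSO libraries and at 61.7, 55.1 and 54.6 CPM in the compound 33 libraries. Every compound 33 library was above every DMSO library. The log2 fold change was 0.73 (SE 0.23, 95% interval 0.24 to 1.23), with an unadjusted p of 0.00704 and an adjusted p of 0.537 in edgeR. Mrpl45 spans chr11:97315716-97329920, plus strand.

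Mrpl38, a mitochondria-specific protein of the central protuberance of the large subunit, showed a like estimate. It stood at 36.6, 29.8 and 33.8 CPM under DMSO and at 45.2, 58.5 and 59.7 CPM under compound 33. Here too the groups did not overlap. The log2 fold change was 0.71 (SE 0.23, 95% interval 0.21 to 1.21), with an unadjusted p of 0.00862 and an adjusted p of 0.563 in edgeR. Mrpl38 spans chr11:116131817-116138868, minus strand, and exons of neither gene overlap another annotated gene. These 2 genes were the only members under an unadjusted 0.05 in all 15 alternative settings. The settings reuse the same 6 libraries, so they are not separate support. The share of all genes that stayed under 0.05 in every setting was not counted. The third large-subunit gene without overlap upward was Mrpl50, at 38.7, 49.2 and 51.2 CPM against 58.7, 65.9 and 52.5 CPM (log2 fold change 0.35, SE 0.22).

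Mrps28, the counterpart of the bacterial protein S1, had the lowest p among small-subunit genes. It stood at 33.9, 46.0 and 55.7 CPM under DMSO and at 30.6, 28.6 and 23.2 CPM under compound 33. The groups did not overlap, with DMSO replicate 1 and compound 33 replicate 1 close together. The estimate was -0.73 on the log2 scale (SE 0.26; edgeR adjusted p = 0.629). Mrps28 spans chr3:8802146-8923918, minus strand. Mrps28 was under an unadjusted 0.05 in 13 of the 15 settings, again without a count over all genes.

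Mrpl34, a small bacterial-type protein of the large subunit, stood at 123, 146 and 87.0 CPM under DMSO and at 77.6, 88.7 and 68.5 CPM under compound 33. The groups overlapped by a narrow margin, with DMSO replicate 3 below compound 33 replicate 2. Its log2 fold change was -0.60 (SE 0.24, adjusted p = 0.690 in edgeR). Mrps21, another bacterial-type protein, stood at 85.9, 56.8 and 37.6 CPM under DMSO and at 33.6, 38.6 and 40.1 CPM under compound 33. DMSO replicate 1 was the highest, and DMSO replicate 3 lay among the compound 33 libraries. The log2 fold change of Mrps21 was -0.67 (SE 0.29, adjusted p = 0.717 in edgeR), and it was -0.32 without DMSO replicate 1.

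**Figure D2:**
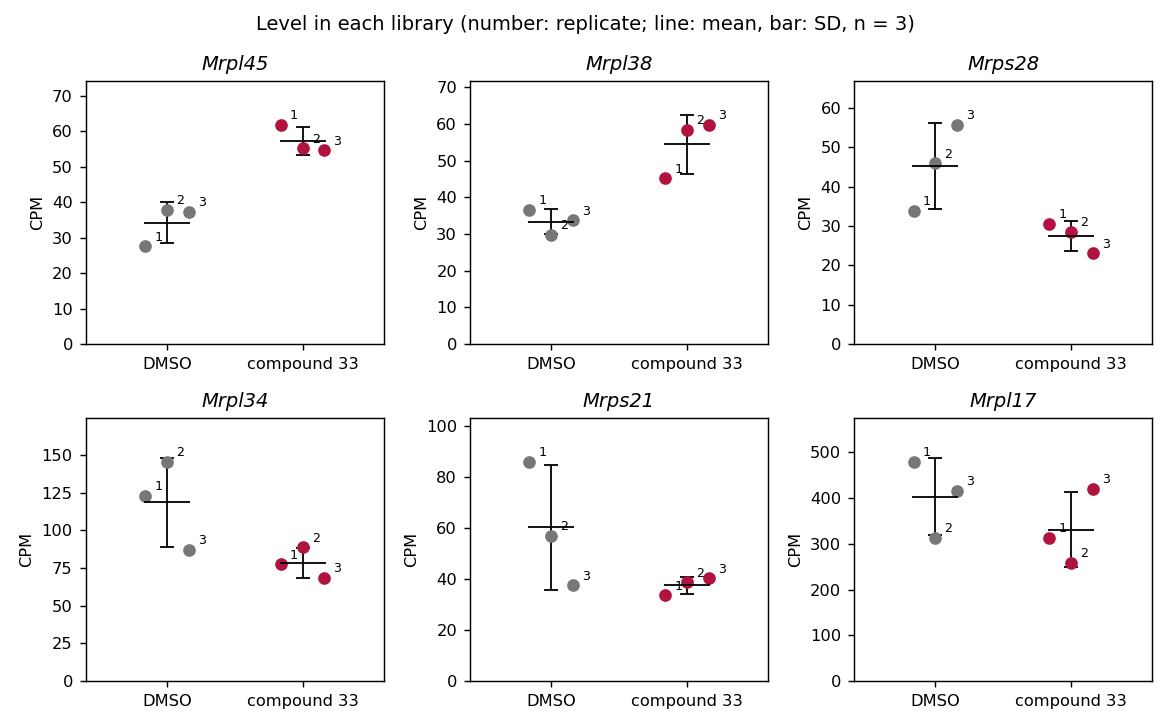
CPM in each library for the 5 members under an unadjusted p of 0.05 and for Mrpl17, the most abundant member; numbers give the replicate, lines the mean and bars the SD of 3 libraries. Mrpl45 and Mrpl38 lie above all DMSO libraries in every compound 33 library, Mrps28 lies below, and Mrps21 is high in DMSO replicate 1.

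The most abundant small-subunit genes were Mrps6, Mrps12, Mrps17 and Mrps16, and the groups overlapped for all 4. Mrps6 stood at 235, 222 and 209.9 CPM under DMSO and 193, 214 and 231 CPM under compound 33. Its groups overlapped, with a log2 fold change of -0.06 (95% interval -0.48 to 0.35) that was 0.0014 without compound 33 replicate 1. Exons of Mrps6 overlap those of Slc5a3 on the same strand, so its count is uncertain. Mrps12, which takes part in the accuracy of decoding, stood at 213, 136 and 157 CPM against 133, 182 and 146 CPM. The estimate was -0.13 on the log2 scale, and 0.074 without DMSO replicate 1. Mrps16 stood at 118 ± 37.4 and 93.8 ± 19.2 CPM, for a log2 fold change of -0.33 that was -0.04 without DMSO replicate 1. Mrps17 stood at 115 ± 0.883 and 103 ± 14.7 CPM, for a log2 fold change of -0.16 that was -0.057 without compound 33 replicate 1 and -0.25 without compound 33 replicate 3.

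Mrps22, a mitochondria-specific protein known from inherited defects of mitochondrial translation, stood at 23.3, 21.2 and 8.36 CPM under DMSO and 11.6, 14.5 and 3.603 CPM under compound 33. Replicate 3 was the lowest library of both groups. The estimate of -0.79 had a 95% interval of -1.85 to 0.26 and was -0.39 without compound 33 replicate 3 and -1.21 without compound 33 replicate 2. At the other end Mrps5 stood at 11.7, 18.5 and 17.8 CPM against 29.3, 20.3 and 14.4 CPM, with overlapping groups. Its log2 fold change of 0.40 ran from 0.12 without compound 33 replicate 1 to 0.62 without compound 33 replicate 3. Mrps34, known from Leigh syndrome, stood at 54.8 ± 10.3 and 68.8 ± 19.0 CPM, for a log2 fold change of 0.33 that ran from 0.11 without compound 33 replicate 3 to 0.51 without compound 33 replicate 2. Mrps31, at 10.1, 7.67 and 9.40 CPM against 7.34, 6.22 and 5.66 CPM, was the other small-subunit gene whose groups did not overlap.

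In the large subunit Mrpl17, a bacterial-type protein, was the most abundant member. It stood at 480, 314 and 416 CPM under DMSO and at 314, 259 and 421 CPM under compound 33. The groups overlapped, and the log2 fold change was -0.29 (95% interval -0.81 to 0.24). It was -0.49 without compound 33 replicate 3, -0.13 without compound 33 replicate 2 and -0.14 without DMSO replicate 1. Mrpl33 stood at 333, 221 and 211 CPM against 188, 260.4 and 174 CPM. The estimate of -0.29 was -0.05 without DMSO replicate 1. Mrpl52, a mitochondria-specific protein, stood at 131 ± 38.5 and 118 ± 29.1 CPM, with a log2 fold change of -0.14 that was 0.091 without DMSO replicate 1. Mrpl10, at the base of the stalk that recruits translation factors, stood at 109 ± 4.47 and 122 ± 18.3 CPM, for a log2 fold change of 0.16 that was 0.051 without compound 33 replicate 3 and 0.26 without compound 33 replicate 1.

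Besides Mrpl34, the lowest estimates of the large subunit belonged to Mrpl57 and Mrpl42, both mitochondria-specific. Mrpl57 stood at 98.1, 61.8 and 54.3 CPM under DMSO and 58.7, 50.2 and 36.5 CPM under compound 33. Its log2 fold change was -0.55, and -0.26 without DMSO replicate 1. Mrpl42 stood at 108, 44.2 and 57.4 CPM against 50.7, 43.5 and 50.4 CPM. The estimate of -0.53 was -0.08 without DMSO replicate 1. Mrpl32 (32.3, 43.8 and 36.2 CPM against 22.6, 31.9 and 23.2 CPM) and Mrpl35 (67.3, 51.0 and 48.0 CPM against 47.1, 39.8 and 30.4 CPM) were lower in all compound 33 libraries, with unadjusted p of 0.0580 and 0.0640 in edgeR.

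Mrps18a, Mrps18b and Mrps18c are related genes whose proteins all descend from bacterial S18. Mrps18c, the bacterial-type member in the small subunit, stood at 35.0, 57.3 and 37.9 CPM under DMSO and 33.0, 41.0 and 37.6 CPM under compound 33. Mrps18b, also of the small subunit, stood at 55.7, 50.1 and 34.5 CPM against 31.8, 52.2 and 84.4 CPM. Mrps18a, of the large subunit, stood at 37.1, 23.9 and 26.5 CPM against 27.5, 34.4 and 40.7 CPM. All 3 had overlapping groups, with log2 fold changes of -0.22, 0.28 and 0.24. The first was 0.038 without DMSO replicate 2, and the second was -0.13 without compound 33 replicate 3. The third was 0.11 without compound 33 replicate 3 and 0.44 without DMSO replicate 1. Mrps30 stood at 49.2 ± 4.68 and 50.9 ± 6.28 CPM, for a log2 fold change of 0.05 that was -0.041 without compound 33 replicate 3. Mrps36, the gene outside the ribosome, stood at 13.1 ± 2.77 and 9.25 ± 1.92 CPM.

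Proteins classed as having a bacterial counterpart and those classed as mitochondria-specific are given side by side. Mrps18a and Mrps18b were put in the mitochondria-specific class, although their proteins descend from bacterial S18. The 46 bacterial-type genes had a median log2 fold change of -0.10, with 19 above and 27 below 0. The 30 tested mitochondria-specific genes had a median of -0.01, with 15 on each side. Summed levels of the first group were 3424 ± 438 CPM under DMSO and 3087 ± 183 CPM under compound 33, and those of the other group were 1411 ± 266 and 1426 ± 144 CPM. Both differences were smaller than the SD of the DMSO libraries, but that of the bacterial-type genes was larger than the SD of the compound 33 libraries. By library, the bacterial-type genes summed to 3927, 3223 and 3121 CPM under DMSO. Under compound 33 they summed to 2881, 3228 and 3153 CPM, so the groups overlapped. The difference between the classes was not tested.

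**Figure D3:**
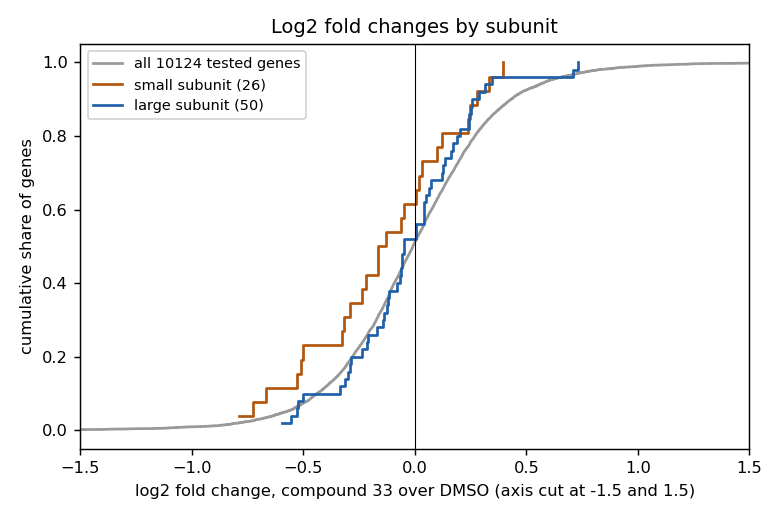
Cumulative share of genes by log2 fold change of compound 33 over DMSO, for all tested genes and for both subunits; the axis ends at -1.5 and 1.5. The medians are -0.15 (small), -0.05 (large) and -0.01 (all).

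Summed over the tested members of each subunit, the groups overlapped for both. The small subunit summed to 1814, 1548 and 1439 CPM in the DMSO libraries and to 1300.3, 1580 and 1573 CPM in the compound 33 libraries. DMSO replicate 1 was the highest and compound 33 replicate 1 the lowest. The large subunit summed to 3819.98, 3007 and 2876 CPM under DMSO and to 2853, 3096 and 3138 CPM under compound 33, again with those libraries at the ends. The ratio of large to small sums lay between 1.94 and 2.19 in all libraries. Subunits named outside the Mrp series are not in these sums, so the ratio is not that of whole subunits. For all members together the mean with compound 33 was 0.933 times that with DMSO, and 1.02 times without DMSO replicate 1.

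**Figure D4:**
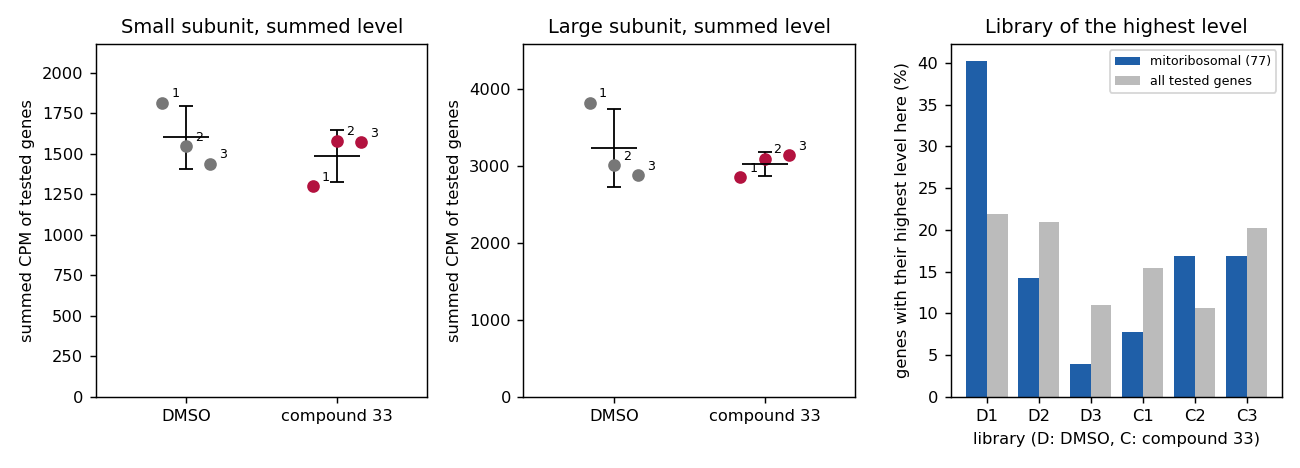
Left and middle, summed CPM of the tested small-subunit and large-subunit genes in each library, with the mean and SD of 3 libraries and replicate numbers; right, percent of members and of all tested genes whose highest level fell in each library. DMSO replicate 1 has the highest sums and holds the highest level of 40.3% of members.

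Among genes that work with the mitochondrial ribosome, in lists drawn up from their known roles, none passed the adjusted test (0 genes of each list named here; unadjusted counts follow). The 5 subunits named outside the Mrp series (Dap3, Ptcd3, Aurkaip1, Chchd1 and Gadd45gip1) had a median log2 fold change of -0.13, with 2 above and 3 below 0 and 0 under an unadjusted 0.05. Aurkaip1 stood at 158 ± 54.9 and 163 ± 4.49 CPM and Chchd1 at 145 ± 56.0 and 128 ± 46.3 CPM. Of 26 tested assembly and RNA modification factors 16 were above 0, with a median of 0.15 and 0 under an unadjusted 0.05. Malsu1, which keeps immature large subunits from joining, stood at 76.8 ± 10.5 and 84.9 ± 20.5 CPM, and Mpv17l2, an assembly factor, at 82.6 ± 11.7 and 94.5 ± 32.5 CPM. The estimates of both were below 0 without compound 33 replicate 3 (-0.0030 and -0.10).

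Translation factors and mitochondrial tRNA synthetases had medians of 0.15 each, over 14 and 15 tested genes, with 9 and 8 above 0 and 0 under an unadjusted 0.05. Lrpprc, which stabilises mitochondrial messages, stood at 592, 373 and 507 CPM under DMSO and 367, 491 and 1228 CPM under compound 33. Compound 33 replicate 3 was far above the rest, and the log2 fold change of 0.50 was -0.19 without it. Its partner Slirp stood at 105 ± 18.9 and 118 ± 14.99 CPM. Iars2, the mitochondrial isoleucyl-tRNA synthetase, stood at 53.6, 54.6 and 62.0 CPM against 73.4, 74.2 and 78.2 CPM, with groups that did not overlap, an estimate of 0.41 (SE 0.21) and an adjusted p of 0.749 in edgeR. Hars2 stood at 23.9 ± 5.13 and 21.9 ± 6.34 CPM. Genes that copy and transcribe the mitochondrial genome had a median of 0.21 over 9 tested genes, 6 above 0 and 0 under an unadjusted 0.05. Ssbp1, which coats single-stranded mitochondrial DNA, stood at 39.9 ± 11.9 and 37.0 ± 9.12 CPM and the polymerase gene Polg at 25.3 ± 3.14 and 29.7 ± 9.14 CPM.

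Nuclear genes of the respiratory complexes, complex II included, and of the ATP synthase had a median of -0.11 over 75 tested genes. Of these, 27 were above and 48 below 0, and 2 (2.67%, against 6.87% of all genes) were under an unadjusted 0.05, both lower. Sdhd, a membrane anchor of complex II, stood at 129, 114 and 104 CPM under DMSO and 78.9, 70.1 and 69.0 CPM under compound 33. All compound 33 libraries were lower, and the estimate was -0.67 (SE 0.21), with an adjusted p of 0.508 in edgeR. Cox6a1, of cytochrome c oxidase, stood at 430 ± 102 and 302 ± 35.5 CPM (estimate -0.51 on the log2 scale; edgeR adjusted p = 0.720). Without DMSO replicate 2 the estimate of Cox6a1 was -0.30, with an unadjusted p of 0.210 in edgeR. Proteins of the cytosolic ribosome had a median of 0.02 over 80 tested genes, 41 above and 39 below 0, with 2 higher and 4 lower under an unadjusted 0.05 (7.5% of the list, against 6.87% of all genes). Rps6 had the smallest p among them, at 64.7, 82.6 and 67.9 CPM against 76.4, 253 and 206 CPM (estimate 1.32 on the log2 scale; edgeR adjusted p = 0.401). Among the lower ones were Rps13 (-0.75) and Rpl19 (-1.24). Without DMSO replicate 2, where they stood at 330.2 and 341 CPM, the estimates of Rps13 and Rpl19 were -0.30 and -0.24. Genes of this family have many near-identical processed copies, so their counts are uncertain.

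Genes of factors known to regulate nuclear genes of mitochondria are listed next. The 7 tested ones had a median of -0.12, with 2 above and 5 below 0 and 0 under an unadjusted 0.05. Yy1 stood at 88.3 ± 10.9 and 81.3 ± 3.19 CPM and Gabpa, the DNA-binding part of GABP, at 30.6 ± 1.92 and 28.0 ± 3.45 CPM. Nrf1 stood at 12.5 ± 1.72 and 13.6 ± 1.63 CPM. The list of mitochondrial stress genes had a median of 0.26 over 11 tested genes, 9 above 0, with 1 of the 11 under an unadjusted 0.05 (9.09%, against 6.87% of all genes). That gene, Ddit3, which encodes the stress factor CHOP, stood at 103, 67.7 and 112 CPM against 136, 136 and 191 CPM (log2 fold change 0.71, SE 0.25, adjusted p = 0.599 in edgeR). Proliferation genes had a median of -0.07 over 13 tested genes with 0 under an unadjusted 0.05. Among them Birc5 stood at 186 ± 36.9 and 237 ± 33.3 CPM and Cdk1 at 132 ± 43.7 and 124 ± 54.1 CPM.

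**Figure D5:**
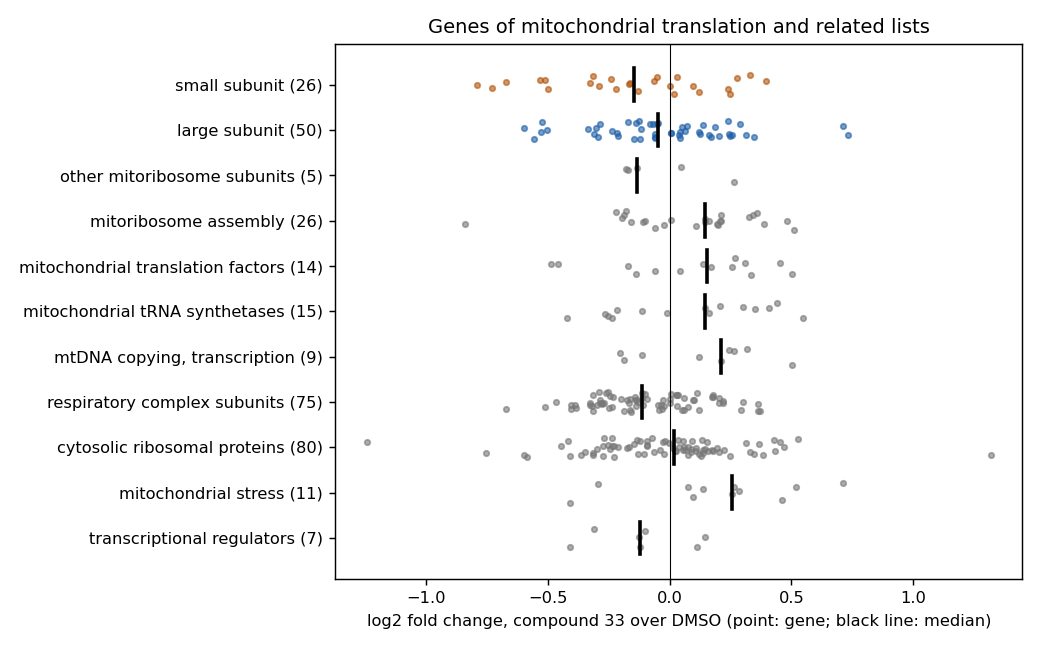
Log2 fold change of compound 33 over DMSO for each tested gene of both subunits and of related lists, with the number of genes in parentheses and the median as a black line. Medians run from -0.15 for the small subunit to 0.26 for mitochondrial stress genes, and no gene shown passed the adjusted test.

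For 33 members a coding gene of the opposite strand starts within 1000 bases. Some whose partner works in mitochondria or ribosomes are given as examples, chosen after their values were seen. Not all of these pairs are divergent, since some overlap head to head. Exons of Mrps11, Mrpl36, Mrpl43 and Mrpl47 overlap those of the partner given here. Mrps11 and Mrpl46 start 412 bases apart on opposite strands of chromosome 7, with log2 fold changes of -0.24 (SE 0.31) and 0.26 (SE 0.30). Mrpl36 starts 29 bases from Ndufs6, a complex I subunit, with values of -0.14 and 0.11. Mrpl43 starts 779 bases from Twnk, the mitochondrial DNA helicase, with values of -0.05 and 0.50. Mrpl47 starts 615 bases from Ndufb5, with values of 0.06 and 0.00. Mrpl49 starts 59 bases from Fau, a cytosolic ribosomal protein gene, with values of 0.29 and 0.16. Mrps27 starts 81 bases from Ptcd2, which acts on mitochondrial RNA, with values of -0.51 and -0.06. Mrps12 starts 172 bases from Sars2, a mitochondrial tRNA synthetase gene that was not tested. None of the tested genes in these pairs passed the test. Exons of 28 members overlap a gene on the opposite strand and those of 8 members a gene on the same strand. Besides Mrps6, those 8 include Mrps34 (with Nme3), Mrpl33 (with Gm43809) and Mrps18c (with Gm43511), so these counts are uncertain too. No source used here gives the strand setting of featureCounts, so reads from the shared exon stretches cannot be told apart. Whether these stretches lie near the 3′ ends, where the kit reads, was not examined. Mrpl53 is among both sets, and its 0 reads allow a level of up to 1.04 to 1.88 CPM by library, for counting error only.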

How the data were processed

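Per the labels' protocols, RNA was read from its 3′ end (Lexogen QuantSeq) on the Ion Proton platform. HISAT2 2.2.1 and featureCounts 2.0.3, with mm10, FastQC 0.11.9 and DESeq2, are listed in the submitters' processing notes. The authors deposited whole-number read counts per gene symbol, with no normalization. The authors also deposited their own comparison, with a mean normalized count (a signal over all libraries), log2 fold changes with standard errors, a Wald score, p-values and adjusted p-values. No source used here gives the annotation, strand setting or treatment of multiply matching reads.

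The edgeR package (4.0.16, under R 4.3.3) was run on these counts. The filterByExpr function (minimum count 10) kept 10124 genes, which held at least 99.4% of each library's reads. Libraries were scaled by TMM and tested with the quasi-likelihood F test, robust, two-sided, on the group term alone, with Benjamini-Hochberg adjustment over all genes tested, at a threshold of 0.05. The coefficient of variation between libraries beyond counting noise was 23.6%. Intervals at 95% used the unshrunk log2 fold change and the test's degrees of freedom. A non-overlap of 3 against 3 libraries has a smallest exact permutation p of 0.1, and none is given. Subunits were assigned from current ribosome nomenclature. Named genes were the 4 most abundant, 3 highest and 3 lowest members per subunit (mean of at least 10 CPM for the latter), members under an unadjusted 0.05, the Mrps18 genes, Mrps30, Mrps36 and Hyou1, and up to 4 genes of each related list, by unadjusted p or else by level. One gene named by this rule is not reported here. Other members with non-overlapping groups, Nrf1 and the pairs with nearby starts were named after their values were seen. Members and lists were chosen with earlier results of these data known. Scripts were tested on simulated data. Alternatives were other scalings, filters, DESeq2 1.42.0, limma-voom (limma 3.58.1), a replicate block and leaving out each library.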

Additional observations from a re-analysis of the deposited data

How the results depend on the processing

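In all 15 alternatives 0 members passed. The number of all genes that passed was 3, and it was 21 without a low-count filter, 18 with DESeq2, 7 with the replicate block and 1 to 7 with a library left out. Same-numbered libraries did not all deviate together (r of -0.03, 0.21 and 0.08 over tested genes), and DMSO replicate 1 correlated best with compound 33 replicate 3, so the block rests on a shared number only, and under it 6 members (7.79%, against 6.60% of all genes) lay under an unadjusted 0.05. With each library left out in turn, the median log2 fold change ran from -0.16 to 0.04 for all members, from -0.23 to -0.035 for the small and from -0.10 to 0.12 for the large subunit, and 2 to 6 members (2.60% to 7.79%, against 5.33% to 9.17% of all genes) lay under an unadjusted 0.05. The ratio of summed member levels ran from 0.885 to 1.02. The median of all genes lay between -0.02 and 0.01 in every setting. These estimates changed sign with 1 library left out: Mrpl52 (-0.35 to 0.091), Mrps12 (-0.26 to 0.074), Mrps18b (-0.13 to 0.55), Mrps18c (-0.34 to 0.038), Mrps30 (-0.041 to 0.14), Mrps6 (-0.12 to 0.0014), Aurkaip1 (-0.14 to 0.35), Cdk1 (-0.39 to 0.22), Chchd1 (-0.50 to 0.18), Hars2 (-0.38 to 0.065), Hyou1 (-0.093 to 0.47), Lrpprc (-0.19 to 0.81), Malsu1 (-0.0030 to 0.32), Mpv17l2 (-0.10 to 0.38), Polg (-0.028 to 0.41) and Ssbp1 (-0.31 to 0.11). The cause was not tested. With 3 libraries a group, depth and spread left a median 95% interval of 0.54 on either side of a member's log2 fold change.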
